A study of Homo sapiens with 18 samples.

Results

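HCC827 is a non-small cell lung cancer line that carries an activating deletion in EGFR, and T15-2 is a subline derived from it that resists erlotinib, which blocks the kinase activity of EGFR. The comparison described here set the 3 T15-2 arrays under erlotinib against the 3 HCC827 arrays under erlotinib, 6 of the 18 arrays in the study, chosen by cell line and treatment as the sample labels give them. Both lines were starved overnight and then kept for 12 h in 1 µM erlotinib, so the controls of this comparison had received the drug too. The other arrays used below were 3 of T15-2 and 3 of HCC827 kept for the same time in DMSO, the solvent of the drug, and 3 of ER3, a separate erlotinib-resistant subline of HCC827, under erlotinib. Cells were grown in RPMI-1640 with 10% fetal bovine serum, and total RNA was copied into biotin-labelled cRNA and hybridised to Illumina expression BeadChips. T15-2 is a single subline, and nothing in the labels tells if replicates were grown as separate cultures, so p-values measure only the spread between these samples, which may be technical.

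Values are background-corrected, quantile-normalized log2 signals, and differences are T15-2 minus HCC827 under erlotinib on the log2 scale, ± standard error (SE), with n = 3 arrays per group, unless another pair is named. Adjusted p is from limma, fitted to all 18 arrays with Benjamini-Hochberg correction over the 19931 probes above background, and a gene was called at an adjusted p below 0.05. Each of the 11820 genes is represented by its probe of highest mean signal. Between 15698 and 17869 probes lay above background on an array, and arrays of a group correlated between 0.991 and 0.997 across genes. T15-2 erlotinib replicate 3 and ER3 DMSO replicate 2 lay farthest from their group means, at root mean square deviations of 0.159 and 0.169, while the remaining 5 arrays of the comparison lay between 0.111 and 0.13. Without T15-2 erlotinib replicate 3 the comparison gave 4739 called genes in place of 4862.

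Both lines showed an epithelial profile with lung features. All 8 epithelial markers examined were above background on every HCC827 erlotinib array, and 7 of the 8 were on every T15-2 erlotinib array, where the splicing regulator ESRP1 was above background on 1 of 3. Their summed linear signal was 17060 to 18650 on the HCC827 arrays and 12870 to 13150 on the T15-2 arrays. Of 4 markers of lung adenocarcinoma, NKX2-1 and NAPSA were above background on all arrays of both groups, SFTPB on 3 HCC827 arrays and 1 T15-2 array, and SLC34A2 on none. PTPRC, CD3E, CD3D, MS4A1 and NKG7, which define blood cells, were below background in both groups, as were CDH5, KDR, COL1A2, COL3A1, PDGFRB and THY1 of endothelium and fibroblasts. Other markers of these cells were above background: CD68, LYZ and PECAM1 on all arrays of both groups, CD14 on 2 HCC827 and 3 T15-2 arrays, VWF and COL1A1 on 3 HCC827 arrays and no T15-2 array, and DCN on 2 HCC827 arrays and 1 T15-2 array. Their part in the results was not tested. The blood-cell list summed to 2727 to 2957 in HCC827 and 4138 to 4324 in T15-2, and CD68, a lysosomal protein that epithelial lines also make, was its brightest member.

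EGFR drives growth of such cells through the RAS, RAF, MEK and ERK kinase chain and through PI3K and AKT. Active ERK raises a set of genes that includes transcription factors such as ETV5 and FOSL1 and inhibitors of the chain itself, such as the dual-specificity phosphatases and the SPRED and Sprouty proteins, so these transcripts are widely read as a gauge of ERK activity. Interferon-stimulated genes, the other large group described here, are antiviral genes that STAT and IRF factors switch on through a promoter element called the interferon-stimulated response element (ISRE).

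Promoters of 4 interferon-stimulated genes are shown first, since genes of this group were among the largest falls. Sequences are from RefSeq, build GRCh38.p14, plus strand, and run from 250 bases before to 50 bases after the annotated start. Capitals mark each match to GAAANNGAAA on either strand, the core of the ISRE. OAS1, OAS3, IFI27 and MX1 lie at chr12:112906712-112907011, chr12:112938224-112938523, chr14:94110486-94110785 and chr21:41431800-41432099, and the starts shown for IFI27 and MX1 are 1 of 2 and 1 of 3 in the table.
OAS1: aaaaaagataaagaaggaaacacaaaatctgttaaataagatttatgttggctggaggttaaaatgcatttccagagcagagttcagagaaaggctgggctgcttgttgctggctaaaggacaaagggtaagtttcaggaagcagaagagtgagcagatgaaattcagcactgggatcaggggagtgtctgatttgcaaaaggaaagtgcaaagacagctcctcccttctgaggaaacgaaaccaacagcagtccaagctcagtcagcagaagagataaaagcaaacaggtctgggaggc
OAS3: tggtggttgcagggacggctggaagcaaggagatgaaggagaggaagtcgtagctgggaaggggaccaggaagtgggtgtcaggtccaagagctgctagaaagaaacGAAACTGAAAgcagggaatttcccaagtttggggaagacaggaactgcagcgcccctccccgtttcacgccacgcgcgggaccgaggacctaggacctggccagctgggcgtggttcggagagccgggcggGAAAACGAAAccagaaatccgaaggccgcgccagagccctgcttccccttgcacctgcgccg
IFI27: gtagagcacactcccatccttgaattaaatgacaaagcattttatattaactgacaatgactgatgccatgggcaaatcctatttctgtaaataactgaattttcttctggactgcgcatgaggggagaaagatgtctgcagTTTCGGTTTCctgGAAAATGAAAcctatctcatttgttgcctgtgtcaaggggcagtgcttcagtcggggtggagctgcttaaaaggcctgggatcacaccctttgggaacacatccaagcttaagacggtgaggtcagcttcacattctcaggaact
MX1: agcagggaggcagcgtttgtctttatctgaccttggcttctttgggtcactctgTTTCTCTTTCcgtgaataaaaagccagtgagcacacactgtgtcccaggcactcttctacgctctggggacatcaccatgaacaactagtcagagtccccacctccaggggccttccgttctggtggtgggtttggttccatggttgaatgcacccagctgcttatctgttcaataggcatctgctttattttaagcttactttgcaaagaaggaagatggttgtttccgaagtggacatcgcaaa
OAS3 and IFI27 each held 2 matches in the window, the MX1 window held 1, and the OAS1 window held none with this spacing. Of the 38 measured genes of the interferon list, 31 had a promoter in the table and 23 of these (74.2%) held a match, against 3.95% of the 9598 tested genes with a promoter and 3.57% of all 35116 promoters in the table. All 23 were called lower in T15-2, with a median difference of -1.36, and 7 of the 8 without a match were called lower too, with a median of -1.58. In the ERK list, where 20 of 31 measured genes had a promoter, none held CCGGAAGT, an ETS-type motif found in 9.57% of tested genes, and 4 held TGANTCA, the AP-1 motif found in 7.06%. None of these 20 held GAAANNGAAA, and 1, that of EGR1, held a CArG box (CC and GG around A and T letters), found in 1.6% of tested genes. All motifs were searched on both strands, and a match is a description of letters, not of a bound site.

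Across the transcriptome, 4862 of 11820 genes (41.1%) were called, 2504 higher in T15-2 (21.2%) and 2358 lower (19.9%), with a median difference of 0.013 over all genes. Differences of at least 2-fold among called genes leaned the other way, with 247 higher and 402 lower. Counts for the gene lists under erlotinib, given below, stand against 21.2% called higher and 19.9% called lower over all genes. In DMSO, on arrays that the erlotinib comparison did not use, 3587 genes (30.3%) were called between the same lines, 1751 higher (14.8%) and 1836 lower (15.5%). Of the 4862 genes called under erlotinib, 2368 were called in the same direction in DMSO (48.7% of the erlotinib list and 66% of the DMSO list), 86 in the opposite direction, and 2408 were not called. Among the 649 genes called with at least 2-fold difference under erlotinib, 543 were called the same way in DMSO. Over the 11820 genes the difference under erlotinib correlated with that in DMSO at a Pearson r of 0.732, given as a description, since genes do not vary independently. The difference between both line differences, which equals the erlotinib response of T15-2 minus that of HCC827, was called for 1366 genes (11.6%), 758 above zero (6.41%) and 608 below it (5.14%), and it shares the erlotinib arrays with the main comparison. That count depended on single arrays, at 809 without T15-2 erlotinib replicate 2 and 1797 without T15-2 erlotinib replicate 3.

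**Figure D1:**
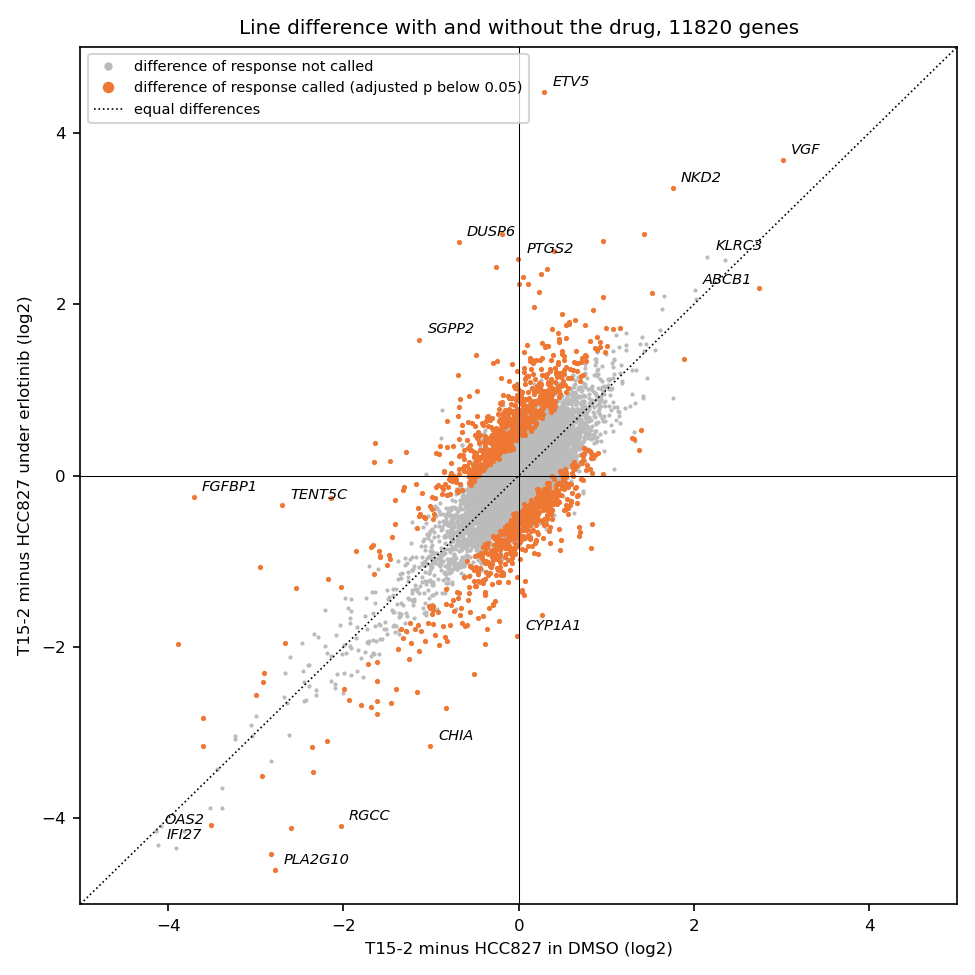
Each point is 1 of 11820 genes, with the T15-2 minus HCC827 difference in DMSO (log2, x axis) against that under erlotinib (log2, y axis). Orange points are genes whose difference of response was called, and the dotted line marks equal differences. VGF, KLRC3, ABCB1, IFI27 and OAS2 lie near the line, ETV5, DUSP6 and PTGS2 lie far above it, and CHIA, RGCC and PLA2G10 lie below it.

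ERK output was the group that stood highest in T15-2. Of 31 measured genes of ERK output and feedback, 26 were called higher and none lower, with a median of 1.26 against 0.013 over all genes. In DMSO the same list had 11 higher and 5 lower, with a median of 0.14, and its difference of response was called above zero for 21 and below zero for none. The median log2 signal of the list ran from 5.50 to 5.63 on the HCC827 erlotinib arrays, from 6.81 to 7.11 on those of T15-2, from 7.69 to 7.76 in HCC827 without drug and from 7.14 to 7.43 in T15-2 without drug. Thus the erlotinib arrays of HCC827 were the low group, and all other groups of these lines lay above them.

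ETV5, an ETS transcription factor of the PEA3 family, had log2 signals of 9.32, 9.40 and 9.44 in T15-2 and 4.83, 5.11 and 4.81 in HCC827 under erlotinib. The groups were far apart, with a difference of 4.47 ± 0.12 (adjusted p = 1.8e-16), and the gene was above background on 1 of the 3 HCC827 arrays. In DMSO the ETV5 signals were 9.45, 9.52 and 9.60 in T15-2 and 9.21, 9.27 and 9.21 in HCC827, a difference of 0.29 that was not called. A dimmer second ETV5 probe differed by 1.15 under erlotinib.

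DUSP6, a phosphatase that acts on ERK itself, measured 7.37, 7.15 and 6.81 in T15-2 and 4.31, 4.38 and 4.48 in HCC827, where it was not above background on any array. It was at least 4.82-fold higher in T15-2 under erlotinib (adjusted p = 1.1e-09), where the bound sets the T15-2 mean against the higher of the gene's own signal and the lowest signal above background on each HCC827 array. Without drug the order was the reverse, with 7.74, 7.91 and 7.70 in T15-2 and 8.72, 8.38 and 8.31 in HCC827, a called difference of -0.68. A dimmer second DUSP6 probe differed by 1.55 under erlotinib, and the bound is for the brighter probe. DUSP6 and CCND1 were among the 86 genes called in opposite directions with and without the drug.

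The nuclear phosphatase DUSP5 measured 9.22, 9.22 and 9.41 in T15-2 and 6.65, 6.70 and 6.29 in HCC827, a difference of 2.74 ± 0.12 (adjusted p = 8.2e-13), and in DMSO T15-2 was higher by 0.96. FOSL1, a partner of JUN in AP-1, measured 7.76, 7.99 and 8.08 against 5.11, 5.63 and 5.24, a difference of 2.62 ± 0.13 (adjusted p = 3.9e-12) that was 0.40 in DMSO. SPRED1, which restrains RAS, measured 10.08, 10.18 and 9.71 against 7.79, 7.70 and 7.53, a difference of 2.32 ± 0.11 (adjusted p = 2e-12). For none of these genes did the T15-2 and HCC827 arrays overlap. SPRED1 did not pass the test in DMSO, where its difference was 0.04.

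CCND1, the cyclin that carries growth signals to CDK4 and CDK6, measured 12.02, 11.99 and 12.11 in T15-2 and 9.59, 9.61 and 9.62 in HCC827 under erlotinib, a difference of 2.44 ± 0.09 (adjusted p = 1.5e-14). Its DMSO signals of 12.53, 12.49 and 12.53 in T15-2 lay just below the 12.71, 12.76 and 12.88 of HCC827, a called difference of -0.26. MYC, a transcription factor that drives growth genes, stood at 12.14, 11.97 and 12.20 against 10.57, 10.55 and 10.52, a difference of 1.56 ± 0.10 (adjusted p = 1.8e-10). Unlike CCND1, MYC was higher in T15-2 in DMSO too, by 0.93.

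**Figure D2:**
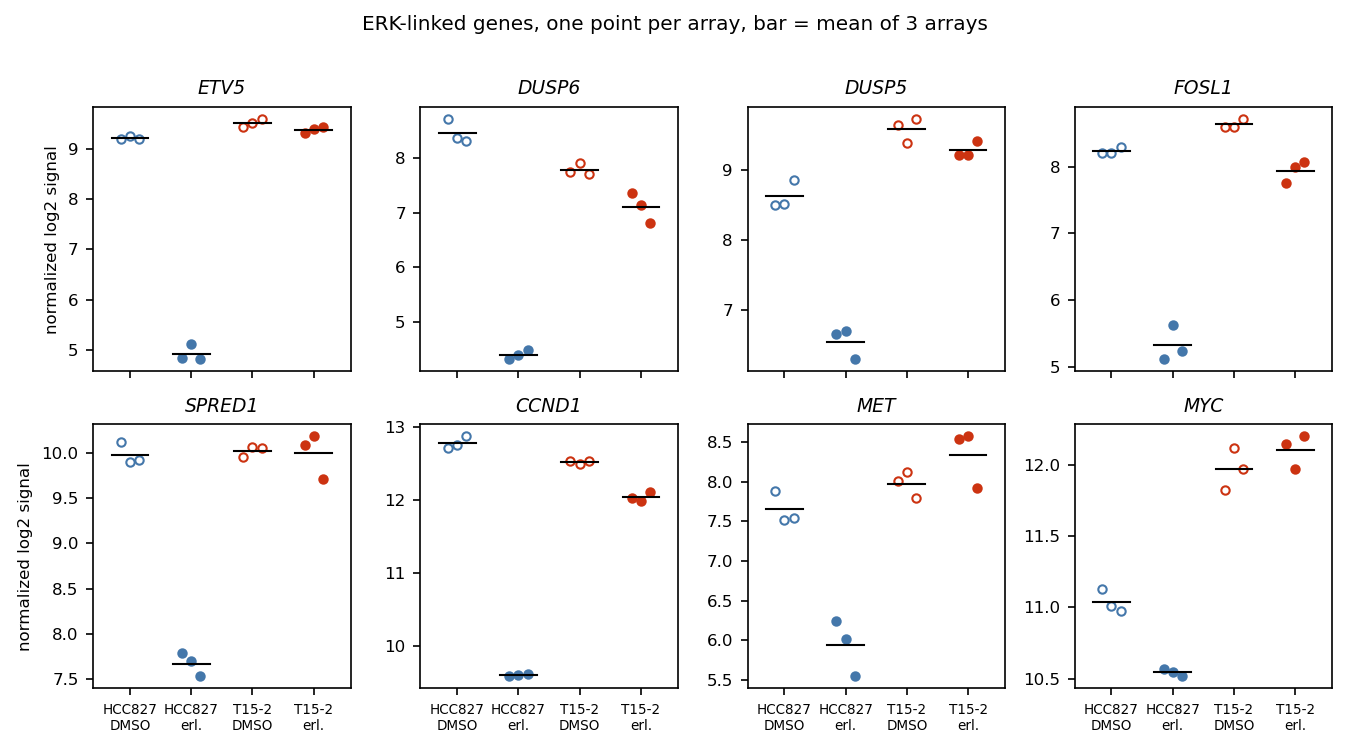
Normalized log2 signal (y axis, a separate range for each gene) of 8 ERK-linked genes on each array of HCC827 and T15-2 in DMSO (open points) and under erlotinib (filled points), with a bar at the mean of 3 arrays. In every panel the 3 HCC827 erlotinib arrays are the lowest points, for example 4.81 to 5.11 for ETV5.

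Among other genes that stood far above HCC827, some differed to a like extent without drug and some did not. VGF, a secreted neuropeptide precursor, measured 9.54, 9.42 and 9.37 in T15-2 and 5.85, 5.80 and 5.63 in HCC827, a difference of 3.68 ± 0.10 (adjusted p = 2.6e-16) that was 3.01 in DMSO. NKD2, an antagonist of Wnt signalling that binds Dishevelled, measured 9.49, 9.56 and 9.48 against 6.14, 6.13 and 6.21, a difference of 3.35 ± 0.09 (adjusted p = 2.4e-16) that was 1.76 in DMSO. KLRC3, a lectin-type receptor known from natural killer cells, and CST7, a cystatin of blood cells, were higher by 2.55 and 2.51, and by 2.15 and 2.36 in DMSO. KLRC3 has near-identical paralogs that a probe may also read.

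By contrast, UBASH3B, a tyrosine phosphatase that acts on receptor-linked kinases, measured 11.09, 10.90 and 10.85 in T15-2 and 8.23, 8.14 and 8.03 in HCC827 under erlotinib, a difference of 2.81 ± 0.09 (adjusted p = 4.2e-15). In DMSO its difference was -0.19 and was not called. PTGS2, the inducible cyclooxygenase, measured 9.18, 9.23 and 9.12 against 6.70, 6.55 and 6.71, a difference of 2.52 ± 0.10 (adjusted p = 7.4e-14), and differed by -0.01 in DMSO. LRP8, a receptor for apolipoprotein E and reelin, showed 2.35 under erlotinib and 0.25 in DMSO, and TMEM158, a membrane protein induced by RAS, showed 2.82 and 1.42. Second probes of PTGS2 and LRP8 differed by 1.43 and 1.10 under erlotinib. For UBASH3B, PTGS2, LRP8 and TMEM158 the difference of response was itself called. It was also called for NKD2, at 1.60, and VGF, at 0.67, but not for KLRC3 and CST7.

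Receptors went in both directions, as genes did at large. Of 24 measured receptor tyrosine kinases and adaptors, 7 were called higher and 5 lower, against 21.2% and 19.9% of all genes. The median of this list was 0.002. Differences of at least 2-fold were called for 4 higher and 3 lower, against 247 and 402 of all 11820 genes. MET, the receptor for hepatocyte growth factor, measured 8.53, 8.57 and 7.92 in T15-2 and 6.24, 6.02 and 5.55 in HCC827 under erlotinib, with no overlap. The MET difference was 2.41 ± 0.23 (adjusted p = 5.4e-08), and 0.32 in DMSO, where it was not called. ERRFI1, a feedback inhibitor that binds EGFR, and EPHA2, an ephrin receptor, were higher by 1.89 ± 0.11 and 1.33 ± 0.12.

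ERBB3, the kinase-poor partner of EGFR and ERBB2, measured 6.91, 6.98 and 7.07 in T15-2 and 9.67, 9.72 and 9.66 in HCC827, a difference of -2.70 ± 0.13 (adjusted p = 3.1e-12). It was also lower in DMSO, at -1.68, and dimmer ERBB3 probes showed smaller differences in the same direction. ERBB2 measured 7.99, 8.23 and 8.45 against 9.43, 9.52 and 9.44, a difference of -1.24 ± 0.16 (adjusted p = 3.4e-06). The collagen receptor DDR1 was lower, at -1.49 ± 0.14. EGFR itself measured 12.68, 12.61 and 12.35 in T15-2 and 12.76, 12.61 and 12.76 in HCC827, with overlapping arrays and a difference of -0.17 ± 0.11 that was not called (adjusted p = 0.28).

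AXL, a receptor often studied in resistance to EGFR inhibitors, measured 7.00, 6.96 and 7.20 in T15-2 and 7.17, 7.20 and 7.09 in HCC827 under erlotinib. The arrays overlapped and the difference of -0.10 ± 0.175 was not called (adjusted p = 0.71), whereas the ER3 arrays stood at 10.84, 10.62 and 10.26. GAS6, the ligand of AXL, was higher in T15-2 by 0.52 ± 0.09 (adjusted p = 6.4e-05). Among 16 ligands of these receptors, 8 were called higher and 3 lower, with a median of 0.24. The EGFR ligands epiregulin (EREG), HB-EGF (HBEGF) and betacellulin (BTC) were higher by 1.79 ± 0.15, 1.40 ± 0.09 and 0.86 ± 0.12, and VEGFA by 0.89 ± 0.11. FGF9 was lower, at -0.83 ± 0.09.

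Ribosome biogenesis genes were mostly higher in T15-2 under the drug. Of 29 measured genes of this list, whose products make and assemble ribosomal RNA, 27 were called higher and none lower, with a median of 0.77, against 15 higher and 1 lower in DMSO with a median of 0.34. NOP16 measured 8.16, 8.08 and 8.67 in T15-2 and 6.81, 6.91 and 6.35 in HCC827, a difference of 1.61 ± 0.15 (adjusted p = 4.8e-08). The helicase DDX21 was higher by 1.59 ± 0.12 (0.46 in DMSO), and the assembly factors PES1 and RRS1 by 1.56 ± 0.18 and 1.09 ± 0.09. Without T15-2 erlotinib replicate 3 the count was again 27 higher and 0 lower.

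Of 38 genes of DNA replication and entry into S phase, 21 were called higher and 3 lower, with a median of 0.33, whereas in DMSO 5 were higher and 9 lower with a median of -0.08. The difference of response was called above zero for 13 of them and below zero for none. The median log2 signal of this list was 7.85 to 8.11 on the T15-2 erlotinib arrays and 7.75 to 7.83 on those of HCC827. Without drug it was 8.71 to 8.75 in T15-2 and 8.96 to 9.06 in HCC827, so both lines stood lower under the drug. Cyclin E1 (CCNE1) was higher by 1.07 ± 0.12, the polymerase subunit POLA1 by 1.04 ± 0.11, and the helicase subunits MCM7 and MCM2 by 0.84 ± 0.09 and 0.79 ± 0.10. MCM10, a loading factor of the replication fork, measured 6.95, 6.91 and 6.40 against 5.86, 5.84 and 6.07, and differed by 0.83 ± 0.15. Genes of mitosis did not share this pattern, with 4 of 35 called higher and 8 lower and a median of -0.01. KIF20A, a kinesin of cytokinesis, was lower, at -0.85 ± 0.10 and anillin (ANLN), a scaffold of the cleavage furrow, was higher by 0.76 ± 0.14.

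Among 18 D cyclins, cyclin-dependent kinases and their inhibitors, 5 were called higher and 4 lower, against 21.2% and 19.9% of all genes. CDK6 was higher by 1.23 ± 0.11 under erlotinib and 1.33 in DMSO. CDKN1B (p27), an inhibitor of cyclin-CDK complexes, was lower, at -0.72 ± 0.10 and differed by 0.05 in DMSO. CDKN1A (p21) measured 5.86, 6.02 and 5.93 in T15-2 and 6.97, 6.78 and 6.71 in HCC827, a difference of -0.89 ± 0.12, smaller than its DMSO difference of -1.86.

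FOXO factors, which AKT keeps out of the nucleus, had targets that went both ways. Of 26 measured targets, 8 were called higher and 12 lower under erlotinib, with a median of -0.30, against 12 higher and 5 lower in DMSO with a median of 0.23. The difference of response was called below zero for 12 and above zero for 1. PIK3IP1, an inhibitor of PI3K, measured 6.16, 6.21 and 6.30 in T15-2 and 8.51, 8.61 and 8.49 in HCC827, a difference of -2.31 ± 0.10 (adjusted p = 2.3e-13) that was -0.51 in DMSO. SESN3 was lower, at -1.36 ± 0.11, while KLF9, the insulin receptor substrate IRS2 and the pyruvate dehydrogenase kinase PDK4 were higher by 1.62 ± 0.15, 1.49 ± 0.11 and 1.46 ± 0.15.

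In metabolism, 18 of 30 glycolysis and hypoxia-type genes were called higher and 2 lower, with a median of 0.40, and 19 and 3 in DMSO with a median of 0.41. The glucose transporter gene SLC2A3 measured 7.49, 7.26 and 7.54 in T15-2 and 5.41, 5.59 and 5.45 in HCC827, a difference of 1.95 ± 0.10 (1.63 in DMSO), and SLC2A1 was higher by 1.15 ± 0.09. ADM, encoding the peptide adrenomedullin, went against the rest and was lower, at -1.03 ± 0.10. Of 19 chaperones and heat shock genes, 12 were called higher and none lower, with a median of 0.43, against 3 and 1 in DMSO. HSPE1 and HSPA8 were higher by 0.87 ± 0.11 and 0.85 ± 0.10.

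Stress, sterol and cell-death genes divided, and their counts stand against 21.2% called higher and 19.9% called lower over all genes. Among 25 targets of ATF4, the factor of the amino acid response, 10 were called higher and 7 lower, with STC2 higher by 1.50 ± 0.09 and NUPR1 lower, at -1.63 ± 0.14. Of 18 genes of cholesterol synthesis and uptake, 4 were called higher and 6 lower, led by the cyclase LSS at -1.23 ± 0.13, whose other probes showed much smaller falls, and the demethylase CYP51A1 at 0.86 ± 0.15. In the BCL2 family of cell-death regulators, 4 of 14 were called higher and 2 lower. The pro-death gene BMF was lower, at -1.50 ± 0.13, though some of its other probes showed much smaller falls, and PMAIP1 (NOXA), also pro-death, was higher by 1.20 ± 0.12. BCL2L11 (BIM), another pro-death member, measured 4.81, 4.96 and 5.34 against 5.22, 5.28 and 5.19, overlapping values with a difference of -0.20 ± 0.15 that was not called (adjusted p = 0.36).

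**Figure D3:**
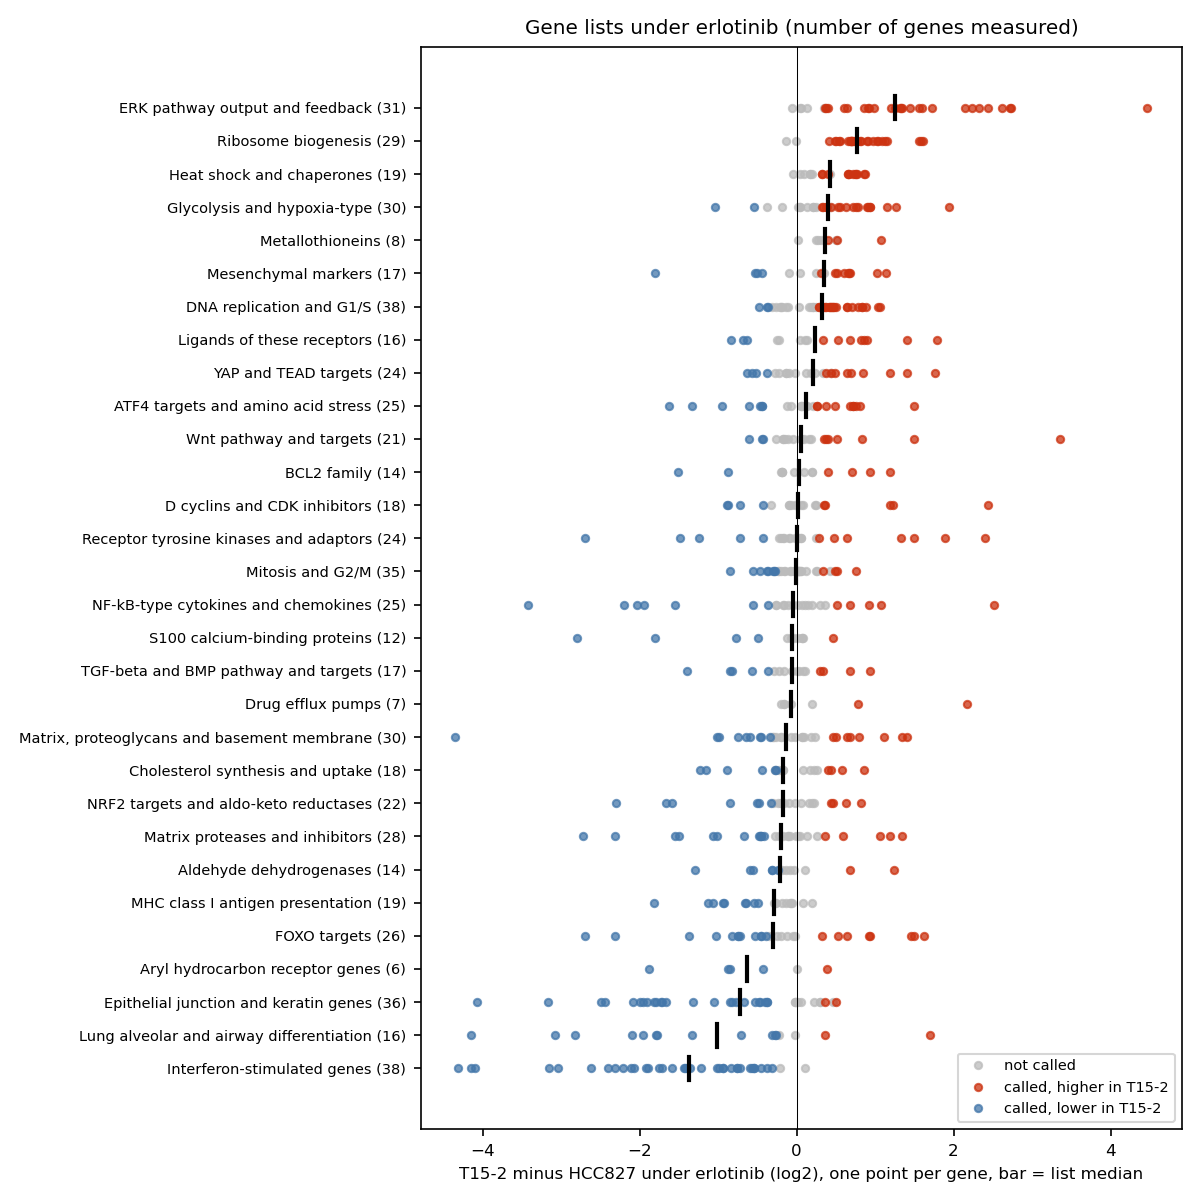
Differences between T15-2 and HCC827 under erlotinib (log2, x axis) of each measured gene of 30 lists (y axis, number measured in brackets), with red points called higher, blue points called lower and a black bar at the list median. ERK output lies highest at a median of 1.26 and the interferon-stimulated genes lowest at -1.38.

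Interferon-stimulated genes stood lowest. Of 38 measured, none was called higher and 36 were called lower, with a median of -1.38, and the counts in DMSO were 1 higher and 34 lower with a median of -1.50. OAS2, a synthetase of the RNA-sensing oligoadenylate system, measured 8.11, 7.93 and 8.03 in T15-2 and 12.15, 12.15 and 12.21 in HCC827, a difference of -4.14 ± 0.10 (adjusted p = 8.8e-17). Its partner OAS1 measured 5.77, 5.44 and 5.66 against 9.58, 9.86 and 9.71, a difference of -4.09 ± 0.13. In DMSO the OAS2 and OAS1 differences were -4.14 and -4.09, the same to 2 decimals.

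IFI27, a small mitochondrial protein, was among the brightest genes in HCC827 at 13.80, 13.98 and 13.82, and measured 9.47, 9.50 and 9.69 in T15-2, a difference of -4.31 ± 0.15 (adjusted p = 1.1e-14). The antiviral GTPase MX1 measured 10.85, 10.67 and 10.70 against 13.95, 13.89 and 13.84, a difference of -3.15 ± 0.10 (adjusted p = 3.8e-15). OAS3 and the pro-apoptotic XAF1 were lower, at -3.04 ± 0.13 and -2.62 ± 0.09, though a second OAS3 probe differed by -0.26. No array of T15-2 overlapped HCC827 for 36 of the 38 genes. The share over all genes was not counted, so this count does not set the list apart. In other lists the arrays did not overlap for 29 of 38 DNA replication, 25 of 30 glycolysis and 14 of 35 mitosis genes. The median log2 signal of the interferon list was 8.56 to 8.66 on the T15-2 erlotinib arrays, 9.42 to 9.44 on those of ER3 and 10.13 to 10.30 on those of HCC827. RNA from bulk cultures does not tell fewer expressing cells from less RNA per cell, for these genes or any other here.

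In antigen presentation the genes that passed were lower, and in the cytokine list they went both ways. Of 19 genes of antigen presentation by MHC class I, 9 were called lower and none higher, with a median of -0.29. HLA-B was lower, at -1.81 ± 0.10, the peptide transporter TAP1 at -1.13 ± 0.10 and the immunoproteasome subunit PSMB9 at -1.06 ± 0.12, with the caution that HLA probes may read paralogs. Among 25 cytokines and chemokines of the NF-kB type, 5 were called higher and 7 lower, against 21.2% and 19.9% of all genes. The median of this list was -0.05. CD70, a ligand of the tumor necrosis factor family, measured 5.49, 5.35 and 5.12 in T15-2 and 8.67, 8.78 and 8.76 in HCC827, a difference of -3.42 ± 0.12 (adjusted p = 1.4e-14), and the chemokine CCL5 was lower, at -2.19 ± 0.10. CXCL16 was lower, at -2.03 ± 0.10 at its brighter probe and differed by 0.15 at a second.

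Epithelial genes were lower in T15-2. Of 36 measured genes of junctions and keratins, 25 were called lower and 2 higher, with a median of -0.72, and in DMSO 21 lower and none higher with a median of -0.52. Without T15-2 erlotinib replicate 3, 25 were lower and 1 higher. OVOL2, a repressor of mesenchymal genes, measured 6.33, 5.96 and 6.42 in T15-2 and 9.45, 9.41 and 9.36 in HCC827, a difference of -3.17 ± 0.11 (adjusted p = 2.3e-14). E-cadherin (CDH1) stayed bright at 10.05, 10.08 and 10.10 against 11.77, 11.72 and 11.72, a difference of -1.66 ± 0.09 (adjusted p = 7.1e-12). The claudin CLDN7, the trafficking GTPase RAB25 and the membrane protease ST14 were lower, at -2.09 ± 0.11, -2.50 ± 0.12 and -2.44 ± 0.14.

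KRT4, a keratin of stratified mucosa, was the epithelial gene with the largest difference, at 5.41, 5.73 and 5.90 in T15-2 and 9.76, 9.90 and 9.59 in HCC827, or -4.08 ± 0.11 (adjusted p = 5.6e-16). ESRP1, a splicing regulator of epithelia, was lower, at -1.73 ± 0.12. KRT8 and EPCAM, broad epithelial markers, were lower, at -0.46 ± 0.09 and -1.05 ± 0.20, and KRT19 differed by -0.02 ± 0.11 and was not called (adjusted p = 0.92). KRT7 was lower, at -0.37. Of the other epithelial markers, KRT18 was called higher by 0.36, a call lost in several settings, and CLDN4 differed by 0.46 and was not called.

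Mesenchymal markers were more often higher than lower, at 9 and 4 of 17 with a median of 0.35, and 8 and 4 in DMSO with a median of 0.33. Vimentin (VIM) measured 13.30, 13.36 and 13.21 in T15-2 and 12.66, 12.59 and 12.63 in HCC827, a difference of 0.66 ± 0.09 (adjusted p = 7.6e-06). N-cadherin (CDH2) was higher by 1.03 ± 0.09. ZEB2, a repressor of CDH1, measured 6.03, 5.99 and 5.89 against 4.93, 4.79 and 4.78, a difference of 1.14 ± 0.13, and was above background on 1 of the 3 HCC827 arrays. S100A4 went the other way at -1.81 ± 0.15.

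Lung differentiation genes were mostly lower, at 12 of 16 against 2 higher, with a median of -1.02 and of -1.36 in DMSO. CEACAM6, an adhesion protein of airway and gut epithelium, measured 8.78, 8.63 and 8.46 in T15-2 and 12.78, 12.78 and 12.77 in HCC827, a difference of -4.15 ± 0.10 (adjusted p = 8.8e-17) that was -3.82 in DMSO. LAMP3, a lysosomal membrane protein of alveolar type II cells, was below background on every T15-2 erlotinib array and at least 7.92-fold lower there. NAPSA, a protease that processes surfactant, and HOPX, a marker of alveolar type I cells, were lower, at -2.10 ± 0.10 and -2.82 ± 0.14.

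**Figure D4:**
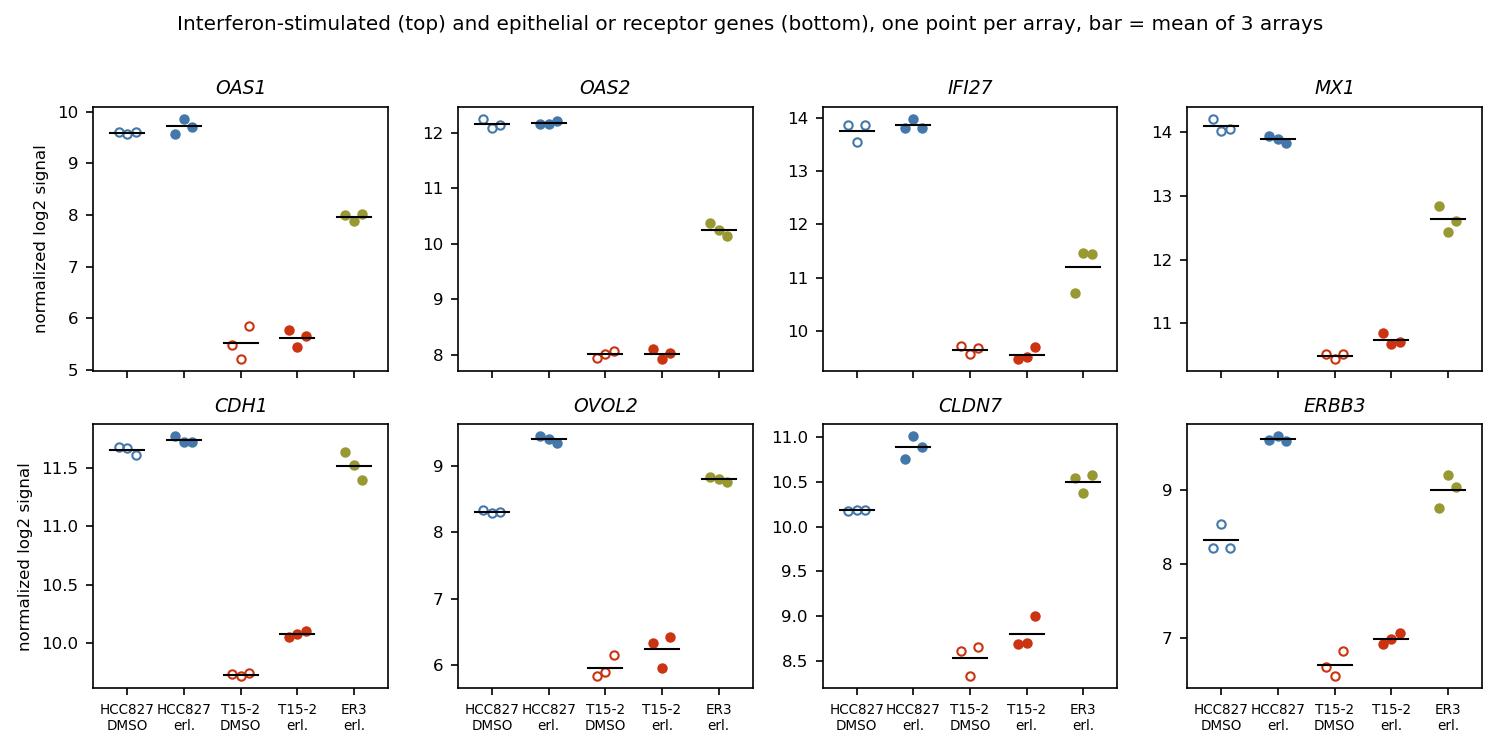
Normalized log2 signal (y axis, a separate range for each gene) of 4 interferon-stimulated genes (top) and 4 epithelial or receptor genes (bottom) on each array of HCC827 and T15-2 in DMSO (open points) and under erlotinib (filled points) and of ER3 under erlotinib, with a bar at the mean of 3 arrays. For OAS1 the ER3 arrays at 7.89 to 8.02 lie between T15-2 and HCC827.

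Other genes far below HCC827 were transcription factors, signalling proteins and secreted products. PLA2G10, a secreted phospholipase, measured 5.51, 5.25 and 5.13 in T15-2 and 9.83, 9.98 and 9.90 in HCC827, the largest fall among called genes above background on every array of both groups, at -4.60 ± 0.13 (adjusted p = 8.6e-16). RGCC, a regulator of cell cycle proteins, was lower, at -4.09 ± 0.11, and the homeobox factor IRX3 at -3.65 ± 0.10. Its relative IRX5, at -3.88 ± 0.14, was above background on 1 of the 3 T15-2 arrays. PGM5, a protein of cell adhesion plaques, was lower, at -3.87 ± 0.11. VAV3 was below background on every T15-2 erlotinib array. At its brighter probe it was at least 16.4-fold lower there (adjusted p = 4.7e-17), and a second probe differed by -2.48.

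The same bound applied to others that were below background on all 3 T15-2 erlotinib arrays and above it on all 3 of HCC827. The proteoglycan versican (VCAN) was at least 16.8-fold lower, the immune inhibitory protein VTCN1 (B7-H4) at least 15.8-fold, the stem cell factor SOX2 at least 9.48-fold and LRCH2 at least 9.08-fold. Versican measured 9.01, 8.89 and 8.86 and SOX2 8.16, 8.02 and 8.10 on the HCC827 arrays. Their differences were called in DMSO too, with lower signals in T15-2.

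Matrix genes were mixed, with 8 of 30 called higher and 9 lower, against 21.2% and 19.9% of all genes. CCN2, a matrix protein and YAP target, measured 9.18, 8.94 and 8.79 in T15-2 and 7.69, 7.54 and 7.46 in HCC827, a difference of 1.40 ± 0.13 that was -0.48 in DMSO, with both called. The laminin chain LAMB1 and integrin ITGA6 were higher by 1.11 ± 0.11 and 1.34 ± 0.15, and LAMB3 was lower, at -1.02 ± 0.13. Of 28 matrix proteases and inhibitors, 5 were called higher and 12 lower, with the stromelysin MMP10 at least 5.07-fold lower, the kallikrein KLK6 lower, at -2.31 ± 0.13 and the urokinase receptor PLAUR higher by 1.35 ± 0.11. Of 24 YAP and TEAD targets, 9 were higher and 4 lower, led by the ectonucleotidase NT5E at 1.77 ± 0.10.

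In the smaller signalling lists, TGF-beta and BMP genes were called higher for 4 and lower for 5 of 17, and Wnt genes for 7 and 3 of 21. Over all genes 21.2% were called higher and 19.9% lower. ID1, a BMP target, was lower, at -1.39 ± 0.14 and SMAD3, a TGF-beta signal carrier, was higher by 0.93 ± 0.09. DKK3, of the Dickkopf family of secreted proteins, was higher by 1.50 ± 0.12 and TCF7L2, a Wnt transcription factor, by 0.84 ± 0.12. Among 12 S100 genes, 1 was higher and 4 lower, with S100P at least 5.71-fold lower in T15-2, where it was below background.

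ABCB1, the efflux pump P-glycoprotein, measured 7.82, 8.07 and 8.06 in T15-2 and 6.09, 5.95 and 5.40 in HCC827 under erlotinib, a difference of 2.17 ± 0.14 (adjusted p = 2.2e-10) and of 2.01 in DMSO. ABCC4 was higher by 0.78 ± 0.11, and these were the 2 of 7 pumps called, where 41.1% of all genes were called. CYP1A1, a monooxygenase induced through the aryl hydrocarbon receptor, measured 6.26, 6.23 and 6.40 against 8.24, 8.23 and 8.03, a difference of -1.87 ± 0.16 (adjusted p = 1e-08), while in DMSO the difference was -0.01. Of 6 genes of that receptor, 4 were lower and 1 higher, and the receptor gene AHR differed by 0.01 ± 0.13 at its brighter probe and was not called (adjusted p = 0.97). A second AHR probe differed by 0.86, and with the mean of its probes the gene was called higher at 0.435.

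Among 22 NRF2 targets and aldo-keto reductases 4 were called higher and 7 lower, against 21.2% and 19.9% of all genes. The median of this list was -0.18. GPX2, a glutathione peroxidase, was lower, at -2.30 ± 0.12, as was AKR1C3, which has close paralogs, at -1.59 ± 0.10. Of 14 aldehyde dehydrogenases, 2 were higher and 6 lower, led by ALDH3A2 at -1.30 ± 0.09 and ALDH1B1 at 1.24 ± 0.11. Of 8 measured genes in the list of metallothioneins and their regulator, 3 were called higher and none lower, with MT1G at 1.08 ± 0.20. The other two calls, MT1E and MT2A, were each lost when any single erlotinib array of either line was left out, and these paralogs may share probe signal.

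The drug-dependent part of the line difference was tested as the difference of response. At its positive end, FGFBP1, a carrier protein for fibroblast growth factors, measured 4.68, 4.96 and 4.66 in T15-2 and 5.04, 5.21 and 4.79 in HCC827 under erlotinib, where the line difference of -0.25 was not called (adjusted p = 0.076). In DMSO it measured 5.90, 5.89 and 5.90 against 9.71, 9.56 and 9.54, a called difference of -3.71 without the drug, and the difference of response was 3.46 (adjusted p = 9.4e-12). SGPP2, a sphingosine phosphate phosphatase, was higher in T15-2 by 1.59 ± 0.11 under erlotinib and lower in DMSO, at -1.13. CX3CL1, the chemokine fractalkine, was likewise higher by 1.18 ± 0.12 and lower, at -0.69.

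At its negative end, CHIA, an acidic chitinase, measured 5.59, 5.91 and 5.97 in T15-2 and 8.93, 8.94 and 9.06 in HCC827 under erlotinib, and 5.17, 4.95 and 5.12 against 5.95, 6.24 and 6.09 in DMSO. Its line difference was -3.15 ± 0.11 with the drug and -1.01 without it, and both were called. ID3, a BMP target, was lower in T15-2 at -0.84 ± 0.13 under erlotinib and higher by 0.82 in DMSO. Others with the larger fall under erlotinib were PLA2G10, RGCC, NUPR1, MMP10, CYP1A1 and PIK3IP1.

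Line differences also followed position along the chromosomes. On chromosome 7, 47.5% of 554 genes were called higher and 8.3% lower, against 21.2% and 19.9% over all genes, with a median of 0.28 under erlotinib and 0.28 in DMSO. On chromosome 21, 9.6% of 125 genes were higher and 39.2% lower, with a median of -0.22 and of -0.27 in DMSO, and chromosome 14 had 33% of 382 lower with a median of -0.13. The genome was also divided, in the gene order of RefSeq, into windows of 25 neighbouring tested genes. At least 13 of the 25 were called higher in 15 of 462 windows and lower in 3.

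Windows at the start of chromosome 5 stood out from the rest of that chromosome. From CCDC127 to MTRR 15 of 25 genes were higher with a median of 0.37, from FASTKD3 to IL7R 18 with 0.60, and from LMBRD2 to ANXA2R-AS1 16 with 0.51. The medians in DMSO were 0.38, 0.33 and 0.35, on separate arrays. On chromosome 7 the window from LHFPL3 to MDFIC had 17 higher and none lower, with a median of 0.65 and of 0.49 in DMSO. On chromosome 21 the window from SETD4 to TMPRSS2, which holds MX1, had 16 lower and 1 higher with medians of -0.48 and -0.46. On chromosome 11, 16 of 25 genes were lower from SSH3 to MRPL21, with a median of -0.45. DNA copy number was not measured here.

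**Figure D5:**
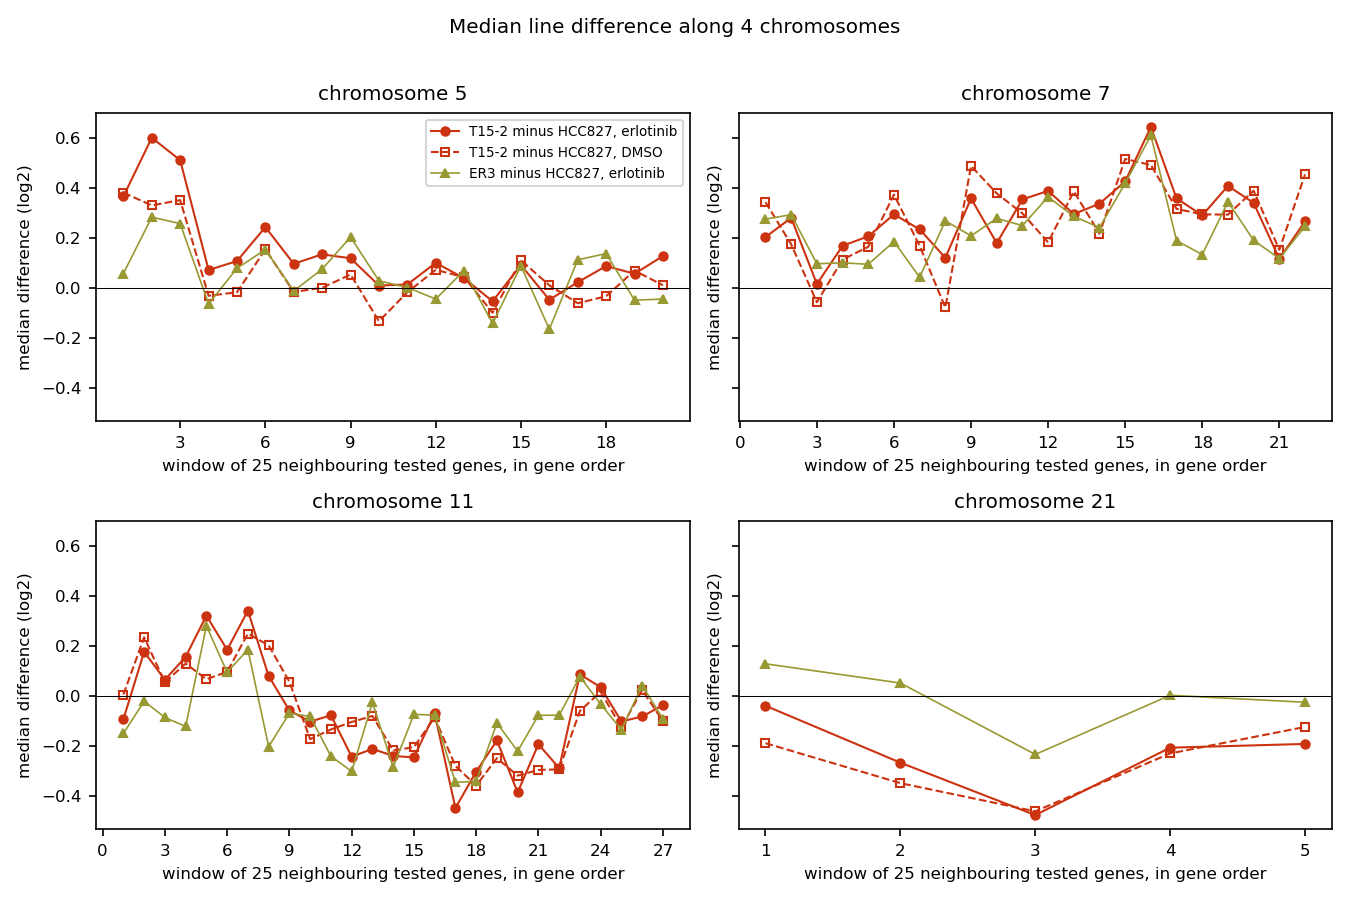
Median difference between lines (log2, y axis) in windows of 25 neighbouring tested genes (x axis, in gene order) along chromosomes 5, 7, 11 and 21, for T15-2 minus HCC827 under erlotinib (filled red circles) and in DMSO (open red squares) and for ER3 minus HCC827 under erlotinib (olive triangles), which shares the HCC827 erlotinib arrays. The first 3 windows of chromosome 5 lie at 0.37 to 0.60 in T15-2 under erlotinib.

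Set against ER3 under erlotinib, T15-2 differed in 3238 genes (27.4%), 1733 higher (14.7%) and 1505 lower (12.7%). These values use the same T15-2 arrays as the comparison with HCC827 and are given side by side with it. In the ERK list, T15-2 was called higher than ER3 for 1 gene and lower for 16 of 31, and in the interferon list higher for none and lower for 29 of 38. Epithelial genes were lower in T15-2 than in ER3 for 24 of 36 and higher for none.

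OAS2 measured 10.37, 10.26 and 10.13 in ER3, above the T15-2 arrays and below those of HCC827, and T15-2 minus ER3 was -2.23 ± 0.10 (adjusted p = 2.4e-12). CDH1 measured 11.64, 11.52 and 11.40 in ER3, so T15-2 minus ER3 was -1.44 ± 0.09 (adjusted p = 2e-10), and for ERBB3, at 8.75, 9.20 and 9.03 in ER3, it was -2.01 ± 0.13 (adjusted p = 8.3e-10). For AXL the difference was -3.52 ± 0.175 (adjusted p = 1.1e-11). VGF at 7.79, 8.02 and 7.95 in ER3 was higher in T15-2 by 1.52 ± 0.10 (adjusted p = 5.7e-10). UBASH3B, MET, LRP8 and SPRED1 differed from ER3 by -0.07, -0.03, -0.01 and -0.15 and were not called, which does not show that the sublines are alike for them.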

How the data were processed

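The deposited table gave, for each of 48803 probes, a signal intensity on a linear scale and a detection p-value, per the file headers, both computed by the authors. The submitters' processing notes name BeadStudio without a version. Another deposited table held the authors' processed intensity values, which served as an alternative. Signals were normalized with limma 3.58.1 in R 4.3.3, using a normal-exponential background model with negative controls inferred from detection p-values, then an offset of 16 and quantile normalization, and were put on the log2 scale. Probes above background (detection p below 0.05) on at least 3 of 18 arrays were kept (19931, of which 15759 had 1 gene symbol). Symbols came from the platform annotation, updated through RefSeq (28054 probes matched). Probes of 36 genes were called in opposite directions.

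A single fit with 6 group means was tested with eBayes for 4 contrasts. The 30 gene lists, the markers and the comparison itself were chosen with earlier results of these data known. Named genes were the 15 largest rises and 15 largest falls without overlap between groups, up to 6 members per list by absolute difference, 12 receptor, cycle and death genes, the 8 largest differences of response each way, 5 called in opposite directions with and without drug, and the markers. Those described were picked from this set with their values known.

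Same-numbered arrays of different groups deviated together in 7 of 45 pairs (correlation above 0.1, range -0.402 to 0.272), so replicate numbers were not taken to pair samples. The script was checked on simulated arrays with known changes. Intensities are not counts, and precision is limited by 3 arrays per group. Alternatives are listed with their effects in the closing section.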

Additional observations from a re-analysis of the deposited data

Results flagged for a closer look

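For 33 named genes the line difference under erlotinib differed from that in DMSO. It was tested as the erlotinib response of T15-2 minus that of HCC827. The test was limma at adjusted p below 0.05, on the log2 scale, with 3 arrays in each of 4 groups. These genes came from the largest line differences, the largest differences of response and genes with opposite calls with and without drug. Receptor, cycle and death genes chosen by name were included too. The largest differences of response were picked among genes already called by this test, so they were flagged by construction. Over all genes 11.6% were called, and the 33 do not measure how common such differences are. The difference of response was above zero for 19 of them. ETV5 had 4.18, FGFBP1 3.46 and DUSP6 3.41. Under erlotinib DUSP6 was below background on all 3 HCC827 arrays and ETV5 was above it on 1, and FGFBP1 was above it on 2 HCC827 arrays and 1 T15-2 array, so these sizes depend on the background correction and are not ranked. UBASH3B stood at 3.00, SGPP2 at 2.72, CCND1 at 2.70 and PTGS2 at 2.53. TENT5C, a poly(A) polymerase not described above, stood at 2.36, and SPRED1, FOSL1, LRP8 and MET at 2.28, 2.22, 2.10 and 2.08. Smaller values were found for CCN2 at 1.89, CX3CL1 at 1.87, DUSP5 at 1.78, NKD2 at 1.60 and TMEM158 at 1.40. VGF and MYC, higher in T15-2 in both conditions, had 0.67 and 0.63.

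It was below zero for 14. CHIA had -2.14, RGCC -2.06, NUPR1 -1.90, MMP10 -1.88, CYP1A1 -1.86, PLA2G10 -1.82 and PIK3IP1 -1.80. For ID3 the value was -1.67, for VAV3 -1.60, for VTCN1 -1.52, for SOX2 -1.12 and for ERBB3 -1.02. VAV3, VTCN1, SOX2, LRCH2 and MMP10 were below background in T15-2 under erlotinib, so their values are not bounds and depend on the background correction. VAV3, VTCN1 and LRCH2 were below background on every T15-2 array in DMSO too, so no T15-2 response was measured for them. SOX2 was above background on 1 T15-2 DMSO array. LRCH2 at -0.58 and KRT4 at -0.57 were the smallest, and both lost the call when single arrays were left out. List members named above were called as well, such as STC2 at 1.20, ALDH1B1 at 1.10, ALDH3A2 at -0.73 and PMAIP1 at 0.72.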

How the results depend on the processing

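The numbers of called genes stayed within 1.5 times the main count under every alternative but the 2-fold minimum, which left 649 genes under erlotinib, 356 in DMSO, 168 for the difference of response and 259 against ER3, and, for the difference of response alone, under arrays left out. Leaving out each array in turn gave 4161 to 4739 genes under erlotinib, 2850 to 3066 in DMSO, 2552 to 2968 against ER3 and 809 to 1797 for the difference of response, which fell to 907 without HCC827 DMSO replicate 1, 876 without HCC827 erlotinib replicate 2, 902 without T15-2 DMSO replicate 1, 897 without T15-2 erlotinib replicate 1 and 809 without T15-2 erlotinib replicate 2. Leaving out both arrays that lay farthest from their groups, an alternative chosen after seeing the data, gave 2111. With the replicate number as a block the counts were 4766, 3433, 1204 and 3084, and replicate numbers showed no pairing. The other alternatives were median scaling, no background correction, the processed table of the authors, no filter, a stricter filter, 1 probe a gene, the mean of probes, the compared arrays alone, and eBayes with trend and robust. ERK-list genes called higher numbered 23 to 27 and interferon-list genes called lower 34 to 36 over these settings and the arrays left out, and 17 and 22 at the 2-fold minimum. Of 213 named genes only KRT18 changed sign under erlotinib among those called in the main fit or the alternative, to -0.038 with the mean of probes. Sign changes of genes called in neither were not counted, and the stricter filter covered 202 of the named genes. KRT7, lower here, lost its call with median scaling (-0.195), TENT5C, MT1E and MT2A lost theirs in several settings, and FGFBP1 gained one under erlotinib with median scaling (-0.339). No fit used the BeadChip as a block, because no source used here ties arrays to chips.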
